A study of Mus musculus with 6 samples.

Results

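Malat1 and 7 other long noncoding RNAs of the mouse brain, namely Neat1, Miat, Pvt1, Pantr1, Rmst, Peg13 and Norad, were followed in each mouse. They were chosen by name, and all 8 were found among the 60354 features that were counted. The set was put forward because Malat1 had the smallest p of all genes between the diets, so the diet difference of Malat1 is given as a description with no test. The question was whether Malat1 moved alone or together with the others. Brain RNA was sequenced from control mice 2, 5 and 10 (n = 3) and from PLDP mice 17, 22 and 26 (n = 3). All 6 were male C57BL/6NCrSlc mice without any transgene, were 16 weeks old at the start, and were on their diet for 16 weeks. PLDP mice received 20% PLDP (protease-treated porcine liver) in modified AIN-93M, and control mice received modified AIN-93M with adjusted total calories. PLDP was no longer given during the behavioral tests that preceded RNA extraction. Each library was made from the whole brain of 1 mouse, so fewer cells of a type and less RNA per cell cannot be told apart in these values.

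Long noncoding RNAs are transcripts that are not translated into protein and act as RNA, many of them in the nucleus. Malat1 is one of the most abundant nuclear RNAs, collects in nuclear speckles, where splicing factors are stored, and is known for effects on splicing and on synapse genes in neurons. Neat1, its neighbor on the chromosome, is the scaffold of paraspeckles, and Miat (also called Gomafu) forms a nuclear domain of its own in neurons and binds splicing factors. Pvt1 lies beside the growth regulator gene Myc, Pantr1 is transcribed away from the promoter of the neural transcription factor gene Pou3f3, and Rmst binds the transcription factor SOX2 during neuron formation. Peg13 is transcribed from the paternal chromosome within an intron of Trappc9, and Norad binds the PUMILIO proteins, which repress messenger RNAs. The set had been described as nuclear RNAs without imprinting. By what is known of them, Peg13 is imprinted and Norad is found mostly in the cytoplasm, so neither fits that description and both are called here by name only.

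Malat1 and Neat1 end in an unusual way that bears on libraries of polyadenylated RNA such as these. The 3′ ends of mature Malat1 and of the long form of Neat1 are cut by RNase P and carry no added poly(A) tail. Instead, U-rich stretches fold back on an A-rich tract encoded in the genome. The ends are shown from the GENCODE M21 transcripts, 5′ to 3′ in DNA letters, with matches to the U-rich letters TTTTNTTTT or TTTTNNTTTT, any T that continues them, and the A-rich tract in capitals. Capitals mark letters only, and which of them take part in the fold was not examined. Both lie on the minus strand of GRCm38, in the single exon of each RNA.
Malat1, chr19:5795922-5796109: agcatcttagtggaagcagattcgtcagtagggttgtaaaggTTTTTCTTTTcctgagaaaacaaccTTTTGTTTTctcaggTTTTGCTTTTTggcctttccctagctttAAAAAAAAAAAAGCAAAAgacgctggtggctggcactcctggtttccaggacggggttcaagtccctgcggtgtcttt
Neat1, chr19:5824708-5824828: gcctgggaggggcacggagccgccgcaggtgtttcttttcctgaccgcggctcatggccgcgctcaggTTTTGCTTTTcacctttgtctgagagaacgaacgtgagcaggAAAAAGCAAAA
In Malat1 the letters after the A-rich tract belong to the small tRNA-like RNA that is cut off. The letters AAAAGCAAAA occurred 1 time in each of these transcripts in sense, and 1 time in each on the opposite strand. Among 13097 transcripts of at least 4000 bases, these RNAs included, 4.79% hold them in sense. The U-rich letters, held by 61.2%, occurred 6 times in Malat1 and 16 times in Neat1. How far the missing tail affects the counts of Malat1 was not tested.

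Norad and Miat are known for repeated short motifs that RNA-binding proteins recognize. The closest pair of TGTANATA matches (PUMILIO) and the first such match in Norad, and the closest 4 ACTAAC matches (the Quaking and SF1 splicing factors) in Miat, are shown with the matches in capitals. All lie in exons on the minus strand of GRCm38.
Norad, chr2:156390506-156390554: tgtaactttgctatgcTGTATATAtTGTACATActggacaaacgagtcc
Norad, chr2:156392306-156392345: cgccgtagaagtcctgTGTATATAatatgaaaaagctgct
Miat, chr5:112216752-112216877: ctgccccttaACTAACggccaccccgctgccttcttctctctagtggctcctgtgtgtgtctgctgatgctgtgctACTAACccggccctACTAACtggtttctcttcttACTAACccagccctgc
Norad held 11 TGTANATA matches in sense and 0 on the opposite strand, or 2.24 per kb. At least 1 match occurred in 46.3% of the transcripts, and 0.0229%, Norad itself included, reached the density of Norad. Miat held 11 ACTAAC matches in sense and 0 on the opposite strand, or 1.2 per kb. At least 1 match occurred in 45.2% of the transcripts, and 0.0305%, Miat itself included, reached that density. Malat1 held neither set of letters in sense. A match describes letters only and shows no binding in these brains.

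Malat1 was higher in every PLDP mouse than in every control mouse. Malat1 (ENSMUSG00000092341) lies on the minus strand of chromosome 19 of GRCm38 from 5795690 to 5802672. In the control mice its level was 1041, 1017 and 1112 CPM (counts per 1000000 counts of the scaled library). In the PLDP mice it was 1226, 1332 and 1320.3 CPM. The lowest PLDP mouse lay above the highest control mouse. The mean was 1057 ± 49.0 CPM (SD, n = 3) in control mice and 1293 ± 58.2 CPM (n = 3) in PLDP mice, which is 22.3% higher. The fitted log2 fold change was 0.29 with an SE of 0.041. Between 21649 and 31772 counts per mouse stood behind these values. Malat1 alone took 0.104%, 0.101% and 0.112% of all counts in the control mice, and 0.123%, 0.133% and 0.131% in the PLDP mice.

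**Figure D1:**
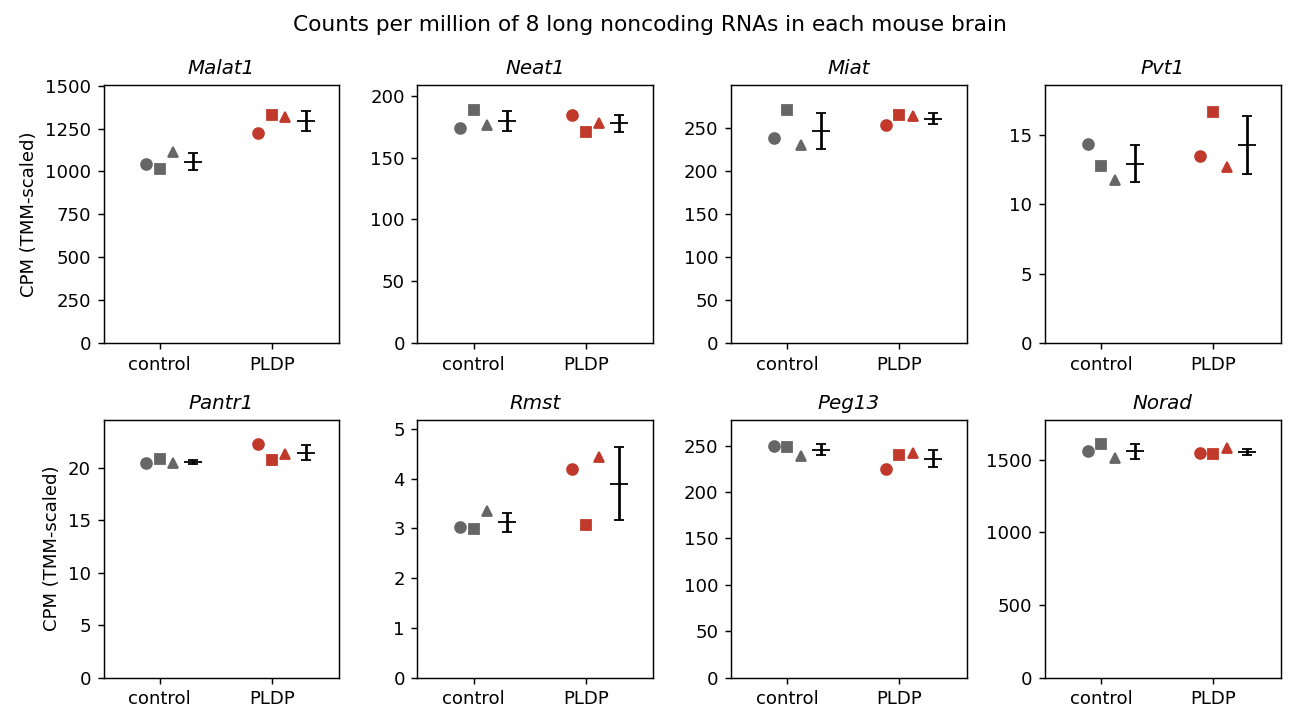
CPM of each of the 8 RNAs (vertical axes start at 0) in 3 control mice (gray) and 3 PLDP mice (red), with bars for the mean ± SD; circles, squares and triangles are mice 2, 5 and 10 in control and 17, 22 and 26 in PLDP, and equal shapes do not pair mice. Only in the Malat1 panel do all PLDP mice (1226 to 1332 CPM) lie above all control mice (1017 to 1112 CPM).

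The other 7 RNAs overlapped between the diets. As the plot of CPM by mouse shows, 0 of these 7 separated the diets. Malat1 did, but it was picked for its small p and is left out of this count. Of the 18580 tested features, 14.2% separated the diets in either direction, 7.29% with PLDP higher and 6.90% with PLDP lower. Among 1382 other annotated long noncoding RNAs, 12.4% did so, 5.07% with PLDP higher and 7.31% with PLDP lower. Of the 7, 0 passed an unadjusted p under 0.05 in edgeR's quasi-likelihood test, against 8.60% of all tested features (4.91% higher and 3.69% lower) and 5.50% of the other annotated long noncoding RNAs. DESeq2 also passed 0 of the 7. An adjusted p under 0.05 was reached by 6 features, or 0.0323%, and by 0.0724% of the other annotated long noncoding RNAs. That number was 1 without control mouse 2 or 10, 0 without control mouse 5, and 182, 14 and 13 without PLDP mouse 17, 22 and 26.

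Neat1, the paraspeckle scaffold, overlapped between the diets. Neat1 (ENSMUSG00000092274, chromosome 19 from 5824708 to 5845478, minus strand) measured 174, 189 and 177 CPM in control mice and 185, 170.5 and 178 CPM in PLDP mice. The highest and the second lowest mouse were control mice, and the lowest was a PLDP mouse. The log2 fold change was -0.018 (SE 0.045, 95% interval -0.11 to 0.077, edgeR adjusted p = 0.953). Its sign is not settled, since it was 0.020 without control mouse 5 and 0.0099 without PLDP mouse 22.

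Miat, the nuclear RNA of neurons, spread more among control mice than among PLDP mice. Miat (ENSMUSG00000097767, chromosome 5 from 112213228 to 112229395, minus strand) measured 238, 270.2 and 230.2 CPM in control mice and 253, 265 and 264 CPM in PLDP mice. Control mouse 5 was the highest of all 6, and the other control mice were the lowest. The log2 fold change was 0.083 (SE 0.051, 95% interval -0.025 to 0.19, edgeR adjusted p = 0.688). Without control mouse 5 it was 0.16, with an unadjusted p of 0.0045 and an edgeR adjusted p of 0.557.

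Norad, the PUMILIO-binding RNA, was even more abundant than Malat1 and varied little. Norad (ENSMUSG00000102869, listed as 2900097C17Rik in GENCODE M21, chromosome 2 from 156388065 to 156392979, minus strand) measured 1558, 1609 and 1509 CPM in control mice and 1546, 1537 and 1579 CPM in PLDP mice. All PLDP mice lay between the lowest and the highest control mouse. The log2 fold change was -0.0041 (SE 0.033, 95% interval -0.074 to 0.066, edgeR adjusted p = 0.985). It was 0.019 without control mouse 5 and 0.0020 without PLDP mouse 22.

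Peg13, the imprinted RNA, lay slightly lower on average in PLDP mice, within the spread. Peg13 (ENSMUSG00000106847, chromosome 15 from 72805600 to 72810324, minus strand, annotated as sense intronic) measured 249, 249 and 239 CPM in control mice and 225, 240.2 and 242 CPM in PLDP mice. PLDP mouse 17 was the lowest, and the other PLDP mice exceeded control mouse 10. The log2 fold change was -0.058 (SE 0.041, 95% interval -0.15 to 0.028, edgeR adjusted p = 0.739), and it was -0.026 without PLDP mouse 17.

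Pantr1 and Pvt1 were counted at lower levels. Pantr1 (ENSMUSG00000060424, chromosome 1 from 42590782 to 42694842, minus strand) measured 20.4, 20.8 and 20.5 CPM in control mice and 22.3, 20.8 and 21.3 CPM in PLDP mice, with a log2 fold change of 0.060 (SE 0.069, 95% interval -0.085 to 0.21, edgeR adjusted p = 0.864). The diets met at 20.8 CPM, in control mouse 5 and PLDP mouse 22. Pvt1 (ENSMUSG00000097039, chromosome 15 from 62037986 to 62378096, plus strand) measured 14.4, 12.7 and 11.7 CPM in control mice and 13.5, 16.7 and 12.7 CPM in PLDP mice, with a log2 fold change of 0.15 (SE 0.11, 95% interval -0.079 to 0.38, edgeR adjusted p = 0.748). PLDP mouse 22 was the highest and the remaining PLDP mice lay within the control range. Without PLDP mouse 22 the log2 fold change of Pvt1 was 0.016, and without control mouse 10 it was 0.083.

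Rmst, the SOX2-binding RNA, was the rarest, with 63 to 90 counts per mouse. Rmst (ENSMUSG00000112117, chromosome 10 from 92071037 to 92165170, minus strand) measured 3.03, 2.99 and 3.35 CPM in control mice and 4.18, 3.06 and 4.44 CPM in PLDP mice. PLDP mouse 22 lay within the control range, and the other PLDP mice lay above it. The log2 fold change was 0.31 (SE 0.17, 95% interval -0.052 to 0.67, edgeR adjusted p = 0.639), as large as that of Malat1 but with a wide interval. Without PLDP mouse 22 it was 0.46, with an unadjusted p of 0.014 and an edgeR adjusted p of 0.493.

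**Figure D2:**
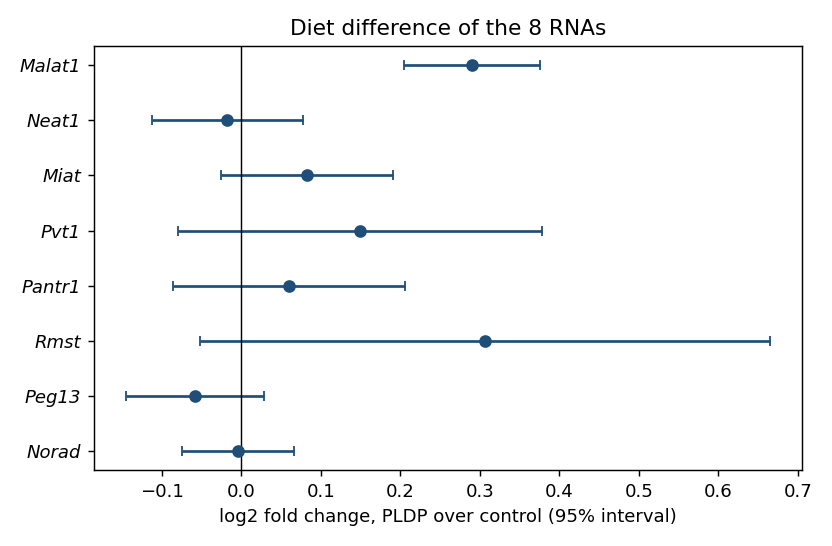
Fitted log2 fold change (PLDP over control) of the 8 RNAs as points, with 95% intervals as bars; the vertical line marks no difference. Malat1 lies at 0.29, while the intervals of Neat1, Miat, Pantr1, Peg13 and Norad end below that value and those of Pvt1 and Rmst reach past it.

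The plot of fold changes shows the intervals of the other RNAs. The intervals of Neat1, Miat, Pantr1, Peg13 and Norad end at or below 0.21 on the log2 scale, under the 0.29 of Malat1. They use a variance that edgeR shares over features, and intervals from the mice of each RNA alone were not computed. The 0.29 belongs to the gene picked for the smallest p, so it is no independent yardstick. The intervals of Pvt1 and Rmst reach 0.38 and 0.67 and include the 0.29 of Malat1. Over all tested features the median log2 fold change was -0.00062 and the median absolute value was 0.074. Over 1382 other annotated long noncoding RNAs these were -0.019 and 0.17.

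The level of Malat1 relative to the other RNAs of the same mouse does not depend on the library scaling. Against Norad, the log2 ratio was -0.58, -0.66 and -0.44 in control mice and -0.33, -0.21 and -0.26 in PLDP mice. Against Neat1, it was 2.58, 2.43 and 2.65 in control mice and 2.73, 2.97 and 2.89 in PLDP mice. Both ratios were higher in every PLDP mouse than in every control mouse. The same held against Miat, Pantr1 and Peg13, with mean differences of 0.20, 0.23 and 0.35. Against Miat the gap was narrow, since control mouse 10 stood at 2.27 and PLDP mouse 17 at 2.28. Against Pvt1 and Rmst the ratios overlapped, with mean differences of 0.15 and -0.011. These ratios share Malat1 and are given with no test. Malat1 made up 31.6%, 30.2% and 33.7% of the counts of the 8 RNAs in control mice and 35.3%, 37.2% and 36.5% in PLDP mice.

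**Figure D3:**
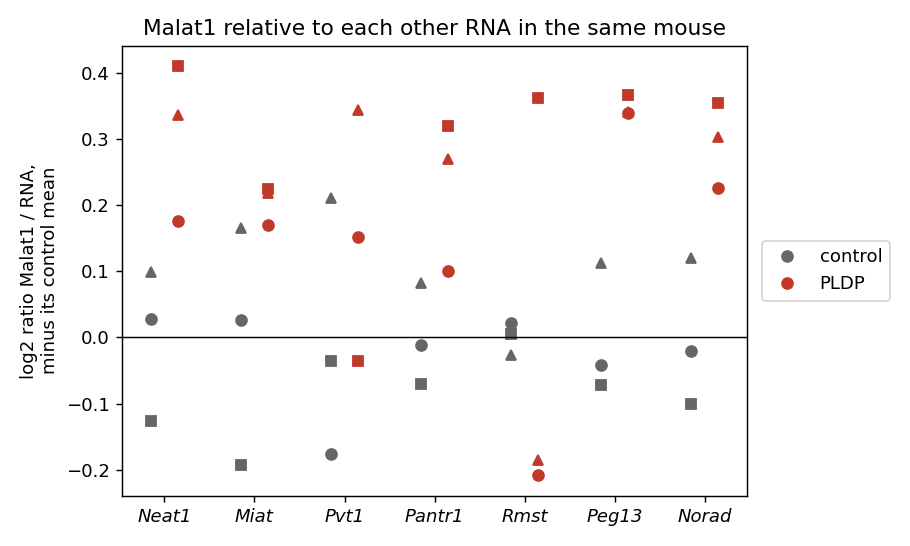
Log2 ratio of Malat1 to each of the other 7 RNAs in the same mouse (vertical axis), set to 0 at its control mean, for 3 control mice (gray) and 3 PLDP mice (red); shapes name mice as in the plot of CPM and do not pair them. Red points lie above all gray points for Neat1, Miat, Pantr1, Peg13 and Norad, and mix with them for Pvt1 and Rmst.

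Per length of merged exons, the order of levels was Norad, Malat1, Peg13, Miat, Neat1, Pantr1, Pvt1 and Rmst. Norad stood at 317 ± 7.08 CPM per kb (SD, n = 6 mice) and Malat1 at 168 ± 19.7. Peg13 followed at 51.0 ± 1.84 and Miat at 27.3 ± 1.74. The paraspeckle scaffold Neat1, spread over 20771 bases, stood at 8.60 ± 0.33 CPM per kb. Pantr1 reached 4.72 ± 0.15, Pvt1 1.95 ± 0.25 and Rmst 0.47 ± 0.086. No 2 neighbors in this order overlapped over the 6 mice. The short form of Neat1 is contained in the long one, and the forms were not counted apart. The place of Neat1 in the order thus holds only for the 20771 bases used here. By mean CPM without regard to length, Norad ranked 28 and Malat1 46 of all features, whereas Rmst ranked 13426, so the set spans abundant and rare RNAs.

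**Figure D4:**
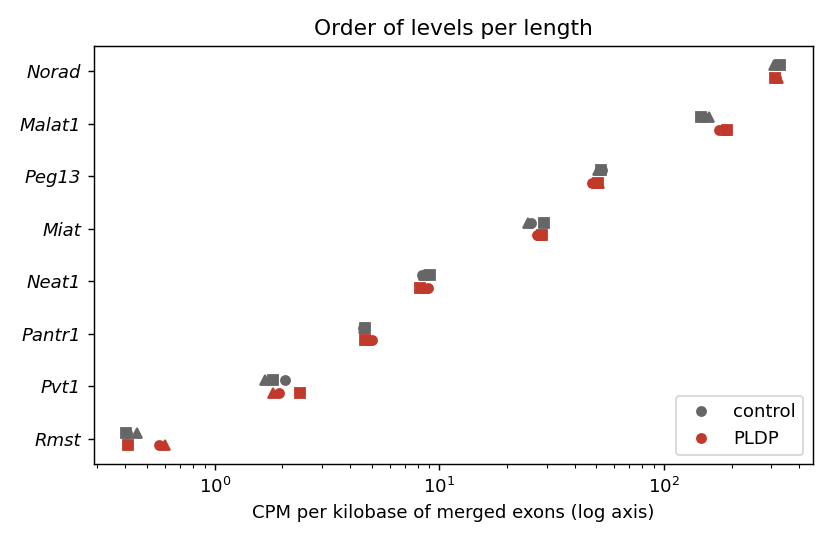
CPM per kb of merged exons (log axis) of the 8 RNAs in each control mouse (gray) and PLDP mouse (red), ordered by mean. The ranges of neighboring RNAs do not overlap, from Norad at 307 to 327 down to Rmst at 0.40 to 0.60.

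Among single features, those whose profile over the 6 mice was most like that of Malat1 were not in the set. By the root mean square difference of log2 CPM, centered on the mean of each feature, the nearest of 10217 features with an official symbol and a mean of at least 10 CPM were Trerf1 (0.034), Cfp (0.037), Nfia (0.042), Dnajc1 (0.043) and Myh9 (0.045). Nfia encodes a transcription factor, the row of Trerf1 is annotated as a processed transcript, Cfp encodes properdin of the complement system, Dnajc1 encodes a cochaperone and Myh9 encodes a nonmuscle myosin. They were picked for likeness and no p is given. Pantr1 was the most like Malat1 within the set, at 0.14 and rank 2322 of 10925 features, followed by Miat at 0.15 and rank 2970. Norad ranked 4957, Pvt1 6126, Neat1 6865 and Peg13 7162, and Rmst was below the minimum level.

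The genes around these loci were compared between the diets as well. Frmd8, 4.22 kb from Neat1 and 47.0 kb from Malat1, had a log2 fold change of -0.073 (SE 0.083, edgeR adjusted p = 0.862). Myc, 47.6 kb from Pvt1, was at 0.026 (SE 0.19), and Pou3f3, 0.925 kb from Pantr1, at -0.043 (SE 0.069). None of the tested nearest coding genes on either side of a member passed an unadjusted p under 0.05, beside 8.60% of all tested features. Nedd1 came closest, with an unadjusted edgeR p of 0.053. Further neighbors were Tmpo at -0.042 and Nedd1 at -0.36 for Rmst, the potassium channel gene Kcnk9 at -0.091 and Chrac1 at -0.00077 for Peg13, Cnbd2 at -0.055 and Epb41l1 at 0.0072 for Norad, Cryba4 at 0.46 for Miat with 8 to 16 counts, and Tmem182 at 0.31 for Pantr1 with 3 to 16 counts. Gsdmc beside Pvt1 and Gm26897 beside Miat had 0 counts in every mouse.

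Other annotated genes with rows in the count tables overlap 6 of the members on 1 strand or the other. Gm37376, antisense to 453 bases of Malat1, had at most 5 counts in any mouse, and Gm26953, antisense to Miat, had at most 13. On the same strand as Rmst, Gm27544 had 15 to 24 counts and a log2 fold change of -0.37 (SE 0.29, edgeR adjusted p = 0.776). Trappc9, which holds Peg13 in an intron on the same strand, stood at 76.3 ± 1.33 CPM in control mice and 78.0 ± 4.23 CPM in PLDP mice. The remaining overlapping features, which are H2afy3 at Pvt1, 4930420N18Rik at Pantr1 and small RNA models such as Mir135a-2 at Rmst, had 7 counts or fewer per mouse. Whether strand was used in counting is not given in the sources used here, so reads of a gene and its antisense partner may not be separable.

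Genes tied to Malat1 and Neat1 through nuclear bodies were described as lists. Of 32 nuclear speckle genes, 2 passed an unadjusted p of 0.05 with PLDP higher and 0 with PLDP lower (6.25%, beside 8.60% of all tested features), with a median log2 fold change of 0.0067. The 2 were Acin1, which encodes an exon junction protein, at 0.14 (SE 0.042, edgeR adjusted p = 0.326), and the kinase gene Srpk1, which phosphorylates splicing factors, at 0.12 (SE 0.047, edgeR adjusted p = 0.495). The count moved with single mice, to 1 without control mouse 2 or PLDP mouse 26, 4 without PLDP mouse 17 or 22, and 6 without control mouse 10. Over the whole table, 1598 features were called with all mice. That number was 1133 without control mouse 2 and 1610 without control mouse 10. It was 2365, 1544 and 1375 without PLDP mouse 17, 22 and 26.

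Of 33 paraspeckle genes, 3 were called higher and 1 lower (12.1%, beside 8.60% of all tested features), with a median of 0.027. Akap8l, a nuclear matrix protein gene, stood at 0.18 (SE 0.044, edgeR adjusted p = 0.200), Taf15, an RNA-binding protein gene, at 0.17 (SE 0.049, edgeR adjusted p = 0.311), and Hnrnpa1, a splicing regulator, at 0.11 (SE 0.039, edgeR adjusted p = 0.421). Rbm3, the cold-induced RNA-binding protein, fell from 107 ± 9.50 to 88.8 ± 5.39 CPM (n = 3 each), a log2 fold change of -0.27 (SE 0.060, edgeR adjusted p = 0.136). For Rbm3 the highest PLDP mouse lay under the lowest control mouse. The core paraspeckle proteins were near 0, with Nono at -0.012 (SE 0.043) and Sfpq at 0.030 (SE 0.048), values given here after they were seen. Without PLDP mouse 17, 8 genes of this list were called, while calls over the whole table rose from 1598 to 2365.

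Of 25 tested genes for 3′ end cutting, RNA methylation and nuclear RNA decay, 1 was called higher and 1 lower (2 of 25, beside 8.60% of all tested features), with a median of -0.0071. Mettl16, a methyltransferase known to bind the triple helix of Malat1, stood at 0.14 (SE 0.055, edgeR adjusted p = 0.471), and Wtap, a subunit of the main RNA methylation complex, at -0.11 (SE 0.050, edgeR adjusted p = 0.565). The count was 1 without control mouse 2, 0 without PLDP mouse 26 and 0 by DESeq2. It was 2 lower and 0 higher without control mouse 10, and 2 higher and 0 lower without PLDP mouse 22. Whole-table calls, 1598 with all mice in edgeR, were 1133 without control mouse 2, 1375 without PLDP mouse 26 and 926 by DESeq2. They were 1610 without control mouse 10 and 1544 without PLDP mouse 22.

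Of 18 partner genes (proteins known to bind members, targets and genes at the same loci), 2 were called higher and 1 lower (16.7%, beside 8.60% of all tested features), with a median of 0.015. Top1, the DNA topoisomerase gene, stood at 0.13 (SE 0.054, edgeR adjusted p = 0.497), and Celf3, a splicing factor known to meet Miat, at 0.10 (SE 0.045, edgeR adjusted p = 0.546). Sox2, whose protein binds Rmst, stood at -0.14 (SE 0.061, edgeR adjusted p = 0.532). Pum2, whose PUMILIO protein binds Norad, was at -0.031 (SE 0.044). The ACTAAC-binding splicing factors of Miat were at -0.076 (Qk, SE 0.054) and 0.035 (Sf1, SE 0.048). The synapse genes Nlgn1 and Cadm1, known to respond to loss of Malat1, were at 0.021 (SE 0.054) and 0.0090 (SE 0.044). Further partners were Khdrbs1 at 0.048, Prpf19 at -0.056, Cdc5l at -0.10, Hnrnpa2b1 at 0.059, Ctcf at -0.0061 and Trappc9 at 0.029, besides the neighbors Myc, Pou3f3 and Kcnk9. The count was 0 without control mouse 2, 1 (higher) without control mouse 5 or by DESeq2, 1 (lower) without PLDP mouse 22, and 2 (both lower) without PLDP mouse 26. Whole-table calls, 1598 with all mice in edgeR, were 1133 without control mouse 2, 1226 without control mouse 5 and 926 by DESeq2. They were 1544 without PLDP mouse 22 and 1375 without PLDP mouse 26.

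Other known long noncoding RNAs included some that were called higher, though most were not called. Of 44 listed, 40 were found and 35 tested, of which 6 were called higher and 0 lower (17.1%, beside 8.60% of all tested features), with a median of 0.076 and 22 above 0. Among the 1382 other annotated long noncoding RNAs, 35 were called higher (2.53%) and 41 lower (2.97%). The list had been chosen with earlier results known. Without PLDP mouse 17, 10 were called higher and 4 lower, without control mouse 10, 9 were called higher and 1 lower, and without PLDP mouse 26, 6 were called higher and 3 lower. With library size only, or without control mouse 2, 5 were called higher and 1 lower. Whole-table calls, 1598 in the main fit, were 2365 without PLDP mouse 17, 1610 without control mouse 10 and 1375 without PLDP mouse 26. They were 1601 with library size only and 1133 without control mouse 2.

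Kcnq1ot1, the imprinted antisense RNA of Kcnq1, measured 31.0, 29.9 and 34.0 CPM in control mice and 39.8, 42.5 and 49.5 CPM in PLDP mice. The diets did not overlap, and the log2 fold change was 0.47 (SE 0.076, edgeR adjusted p = 0.037). This adjusted call was lost with library size only, with limma voom, and without control mouse 2, 5 or 10 or PLDP mouse 26, where 0 genes of the list reached it. Mirg and Meg3, maternally expressed RNAs of the Dlk1-Dio3 region, were called at 0.34 (SE 0.066, edgeR adjusted p = 0.079) and 0.15 (SE 0.039, edgeR adjusted p = 0.248). Meg3 was more abundant than Malat1 in CPM, at 2993 ± 60.4 in control mice and 3321 ± 211 in PLDP mice. Mir99ahg, a microRNA host transcript, was called at 0.53 (SE 0.15, edgeR adjusted p = 0.306) with 87 to 152 counts per mouse. The last 2 of the 6 were Mir124a-1hg at 0.17 (SE 0.051, edgeR adjusted p = 0.319) and Snhg11 at 0.076 (SE 0.035, edgeR adjusted p = 0.565).

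**Figure D5:**
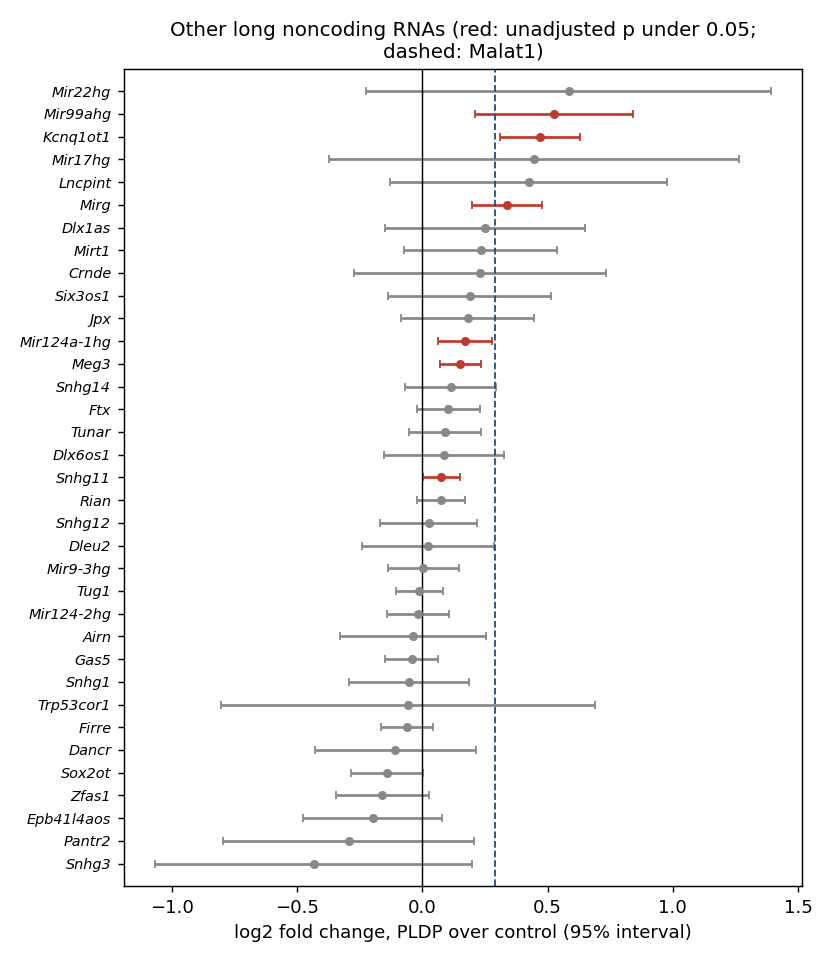
Fitted log2 fold change (PLDP over control, horizontal axis) of the 35 tested long noncoding RNAs outside the set, with 95% intervals as bars; the 6 with an unadjusted p under 0.05 are red, the solid line is no difference and the dashed line is Malat1 at 0.29. All 6 red points lie to the right of 0, and those of Mir99ahg, Kcnq1ot1 and Mirg lie to the right of Malat1.

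The libraries were of similar depth, with 20526120 to 22112008 counts in control mice and 18797061 to 23938729 in PLDP mice. Markers of neurons summed to 6978 to 7188 CPM in control mice and 7017 to 7167 CPM in PLDP mice, and those of astrocytes to 3947 to 4033 and 3965 to 4041 CPM, so markers of brain cells were present and overlapped. The sums of 2 other marker lists separated the diets, with PLDP lower. The 12 hindbrain markers summed to 148 to 161 CPM in control mice and 77.3 to 117 CPM in PLDP mice, and 9 of 10 tested were called lower at an unadjusted p under 0.05, beside 3.69% of all tested features. The 8 choroid plexus markers summed to 763 to 821 and 599 to 761 CPM, and 3 were called lower. Most of this sum was Ttr, at 679, 729 and 717 CPM in control mice and 535, 670 and 617 CPM in PLDP mice. Ttr was the only 1 of the 8 whose diets did not overlap. Of the 8 oligodendrocyte markers 3 were called lower and of the 10 immediate early genes 3 were called higher (beside 4.91% of all tested features), while their sums overlapped, at 5290 to 5686 and 4926 to 5551 CPM for the former and at 769 to 880 and 729 to 1091 CPM for the latter. No marker of these 6 lists was at 0 in all mice. Their part in the Malat1 difference was not tested.

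Some abundant transcripts were not counted on their own rows, since 10 of the 13 protein genes of the mitochondrial genome had 0 counts in every mouse. A row may thus hold part of the reads of a gene, and whether this touches the rows of the 8 RNAs was not tested.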

How the data were processed

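RNA-seq libraries (TruSeq Stranded mRNA, paired reads) were made from the brains of 3 control and 3 PLDP mice. The authors deposited whole-number read counts per feature for each mouse, without normalization. The submitters' processing notes name cutadapt 2.9, HISAT2 2.2.0, featureCounts 2.6.0 and DESeq2 1.6.3, with GRCm38 and a human build. The annotation, strand setting and treatment of shared reads are not given in the sources used here. Identifiers were matched to GENCODE M21 (GRCm38), and exon lengths and sequences were taken from it. Of the identifiers, 257 were not in it, and 5320 features carry no Ensembl identifier.

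The quasi-likelihood test of edgeR 4.0.16 (R 4.3.3) was run two-sided on the counts for the effect of diet, with no covariate, after filterByExpr by diet (minimum count 10, minimum total 15) and TMM scaling. A call is an unadjusted p under 0.05. Adjusted p-values are Benjamini-Hochberg values over all 18580 tested features. Intervals are 95%. P-values and intervals set the diet difference against the spread between 3 mice per diet. For each feature edgeR draws this spread toward that of the other features, so it does not rest on the 3 mice alone. An exact permutation test of 3 against 3 cannot go below 0.1 and was not used. Alternatives were no filter, at least 10 counts in every mouse, RLE factors, library size only, DESeq2 1.42.0, limma 3.58.1 voom, and leaving out each mouse. Tables and plots used Python 3.11.15, pandas 2.3.3 and matplotlib 3.10.9.

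The members and lists were chosen with earlier results of these data known. By rule, the text names every member, overlapping genes, the nearest coding gene on each side, up to 4 called genes per list and direction, every partner gene, and the 5 features nearest to Malat1. A few genes named by the rule are not reported here. The calls beyond 4 in a list, and Nono and Sfpq, were added after their values were seen. Oip5os1, Mir100hg, Cerox1 and Nrav, and Tubb3 of the neuron markers, were not matched by symbol. The sums of the further marker lists overlapped between the diets, with 2 of 5 oligodendrocyte precursor markers and 1 of 8 microglia markers called lower (beside 3.69% of all tested features), 2 of 7 endothelium markers and 2 of 8 cortex and hippocampus markers called higher (beside 4.91%), and 0 of 7 meninges, 0 of 5 blood and 0 of 1 tested pituitary markers called. Of the neuron and astrocyte markers, 1 of 10 and 1 of 8 were called lower.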

Additional observations from a re-analysis of the deposited data

How the results depend on the processing

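The log2 fold change of Malat1 was between 0.26 and 0.33 over 12 alternatives. DESeq2 called 926 features (564 higher, 362 lower; 23 adjusted) against 1598 (913 and 685; 6 adjusted), and 0 of the 7 other members under both. Leaving out single mice, the called members other than Malat1 numbered 0 to 1. The called listed genes, 17 over the 5 lists, numbered 11 (without control mouse 2) to 33 (without PLDP mouse 17, 25 higher and 8 lower). In those fits 1133 and 2365 features of the whole table were called. Over the same fits the log2 fold change was -0.046 to 0.020 for Neat1, 0.037 to 0.16 for Miat, 0.21 to 0.46 for Rmst and -0.028 to 0.019 for Norad. Neat1 and Norad turned positive without control mouse 5 (0.020 and 0.019) and without PLDP mouse 22 (0.0099 and 0.0020). Miat passed the unadjusted threshold without control mouse 5, and Rmst without PLDP mouse 22. The cause was not tested. Pvt1, Pantr1 and Peg13 kept their sign and passed the threshold in 0 of 12 alternatives, with 0.016 to 0.23, 0.032 (without PLDP mouse 17) to 0.082 and -0.079 to -0.026. With no filter 180 features reached an adjusted p under 0.05, with library size only 1 and with voom 3. Without a filter, 4 nuclear speckle genes and 1 gene of the 3′ end list were called. Rmst had the fewest counts of the 8 RNAs, 63 to 90 per mouse, and how far depth limits it was not tested. No paired analysis was possible because the mouse numbers 2, 5 and 10 of control and 17, 22 and 26 of PLDP are not shared between the diets.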
